A study of Homo sapiens with 16 samples.

Results

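The genes described here are the messengers of the BCL2 family that start cell death: the BH3-only activators and sensitisers BCL2L11 (BIM), PMAIP1 (NOXA), BBC3 (PUMA), BMF, BID, BAD and BIK, and the pore-forming effectors BAX and BAK1. They were taken by symbol from the deposited count tables, which gave 9 of the 12592 genes listed for KMS12PE and 8 of the 14560 listed for KMS27, where BIK is not listed. Both are human myeloma cell lines that carry t(11;14). RNA was measured in 8 populations with 2 libraries each, 16 libraries in all. KMS12PE has a venetoclax-sensitive parental population and resistant clones A, C and D, each with replicates 1 and 3, and KMS27 has its parental population and the resistant clones B5, C1 and C5, each with replicates 1 and 2. Each resistant clone grew from a single cell that persisted under the drug and was kept in 100 nM venetoclax, while a dose for the parental cells is not stated. The drug, the selection and the origin from 1 cell therefore cannot be told apart in any comparison of a clone with its parental population.

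Venetoclax fills the groove of BCL2 that BH3-only proteins bind. When such proteins are freed, or are made in excess, they engage BAX and BAK1, which open pores in the outer mitochondrial membrane and release cytochrome c. BIM, PUMA and BID can bind every survival protein of the family and activate the effectors directly, whereas NOXA binds mainly MCL1, and BAD binds BCL2 and BCL-XL but not MCL1. Cells of plasma cell origin depend on MCL1, and t(11;14) myelomas often depend on BCL2 and carry it loaded with BIM, which is why the balance between these genes is of interest in resistance.

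The calls that held best were in 2 genes. In KMS27, BCL2L11 RNA rose in all 3 clones, up to 4.22-fold in clone C5, and in KMS12PE, PMAIP1 RNA fell in clones A and D to 0.478 times the parental level. Neither gene moved alike in the other line. The response of both differed between the lines in a direct test, whose p-values do not count the spread among the clones. In bulk RNA, fewer cells with a transcript and less of it per cell cannot be told apart. BMF RNA fell in all 3 KMS27 clones and in KMS12PE clone D. BAD, BAX and BAK1 were called in a single KMS27 clone each, BAX also in the mean of the clones. BBC3, BID and BIK were not called against parental cells. These calls are from the main fit, which has no block on replicate number. With that block PMAIP1 and BIK were also called in KMS12PE clone C, BAK1 in KMS12PE clone D, and BID and BAX in KMS27 clone C1. Of the main-fit calls against parental cells, those of BCL2L11 in KMS27 and of PMAIP1 in clone D held without any single library. Each of the others was lost without at least 1.

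The upstream sequences of the 2 genes that differ between the lines are shown because their RNA carries these patterns. The window runs from 250 to 51 bases before the RefSeq start (GRCh38.p14), and capitals mark matches to the motifs searched. BCL2L11 has its window at chr2:111120664-111120863 on the plus strand, and PMAIP1 has its window at chr18:59899746-59899945 on the plus strand. The BCL2L11 window opens 1286 bases inside the gene as GENCODE v29 draws it, since that annotation has an earlier start, and lies between exons of the gene, while the PMAIP1 window ends before the first annotated exon.
BCL2L11: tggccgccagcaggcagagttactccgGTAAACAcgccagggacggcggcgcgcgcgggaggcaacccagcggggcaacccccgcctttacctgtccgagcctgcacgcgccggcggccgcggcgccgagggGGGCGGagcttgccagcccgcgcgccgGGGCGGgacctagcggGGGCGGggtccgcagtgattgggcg
PMAIP1: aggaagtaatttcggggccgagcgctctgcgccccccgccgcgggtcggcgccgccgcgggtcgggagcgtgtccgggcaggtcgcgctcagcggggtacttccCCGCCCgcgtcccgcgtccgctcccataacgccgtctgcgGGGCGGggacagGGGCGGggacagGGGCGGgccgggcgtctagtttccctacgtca
The BCL2L11 window is 77.5% G and C, with 3 GC boxes (GGGCGG) and 1 forkhead word (TGTTTAC, here on the minus strand), and the PMAIP1 window is 76% G and C, with 4 GC boxes. Of 34943 RefSeq windows of the same length, 34.9% hold a GC box and 2.34% hold the forkhead word. RefSeq has at least 1 window for 8 of the 9 genes, BIK being the exception. BAD, BMF and BID have more than 1, and a gene was counted if any of its windows held the word. The shares are per window, so counts of genes cannot be set against them directly. Of the 8 genes, a GC box is in 5 (BAD, BAK1, BCL2L11, BID and PMAIP1), and the forkhead word is in BCL2L11. Not every BID window holds a GC box or the E-box named next. The E-box CACGTG is in BAX, BBC3 and BID (4.51% of all windows), whose windows reach into annotated exons. The CRE word TGACGTCA (0.947% of windows) and the E2F words TTTCGCGC (0.341%) and TTTGGCGC (0.398%) are in none of the 8. All words were searched on both strands and do not overlap each other in the 2 windows shown, and a match is a description of letters, not a binding site.

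Levels are given as CPM, counts scaled to a common total, here the TMM-scaled library total, and as mean ± SD over 2 libraries. Log2 fold changes (log2FC) come from edgeR's quasi-likelihood test with 1 mean per population, and a gene was called where its Benjamini-Hochberg adjusted p over all genes tested was under 0.05. A KMS12PE library held 5831289 to 13674426 counts and a KMS27 library 20257318 to 52615971, with the parental pair of KMS12PE lowest of all 16. The 2 libraries of KMS27 clone B5 differed from each other more than any other pair of that line (chi-square over its degrees of freedom 54.5, against 11.1 to 21.4), and values without either of them stand beside the results they change. All 11 plasma cell markers examined are listed in both tables, with changes in KMS27 given beside BCL2L11. In KMS12PE POU2AF1 was lower in clone A, and JCHAIN and POU2AF1 were lower in clones C and D. CD38 and TNFRSF17 were higher in clone D. The markers called were 9.09%, 18.2% and 36.4% of the 11 in clones A, C and D, beside 0.448%, 1.78% and 5.16% of all genes. Of the T cell, myeloid, erythroid and stromal markers, CD3G, CD3E, TRAC and CD68 alone are listed, and none of these lists summed to more than 12.5 CPM in a library. Nothing in the labels says that the 2 libraries of a population came from separate cultures, so p-values measure the spread between these libraries, which may be technical. For every gene, the p-value given for a mean over the clones of a line likewise does not count the spread among those clones.

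Counts of called death genes were read against the share of all genes called in the same comparison. Among all genes tested, 0.448% were called in clone A, 1.78% in clone C, 5.16% in clone D and 1.47% in the mean of the 3 KMS12PE clones. In KMS27 the shares were 21.0% for B5, 21.6% for C1, 19.7% for C5 and 25.8% for the mean. Against these backgrounds, 1 of 9 death genes was called in clone A, 0 of 9 in clone C, 2 of 9 in clone D and 1 of 9 in the mean, while 4 of 8 were called in clone B5, 3 of 8 in clone C1, 4 of 8 in clone C5 and 3 of 8 in the mean. At an unadjusted p under 0.05, clone C had PMAIP1, BIK and BCL2L11, where 10.3% of all genes were under it, and DESeq2 also called 0 there. A block on replicate number, by which the KMS12PE libraries pair, raised the share of all genes called to 3.65% in clone A, 7.08% in clone C, 16.4% in clone D and 6.50% in the mean. Of the 9 death genes it called 1, 2, 3 and 1 in these comparisons. The median log2FC of the 9 genes was 0.06 in clone A, 0.12 in clone C and -0.09 in clone D, and that of the 8 genes was -0.16, -0.23 and -0.23 in clones B5, C1 and C5, where the median over all genes was within 0.0108 of 0 in each clone. The clones of a line share 1 parental population, so their comparisons are not independent of each other.

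**Figure D1:**
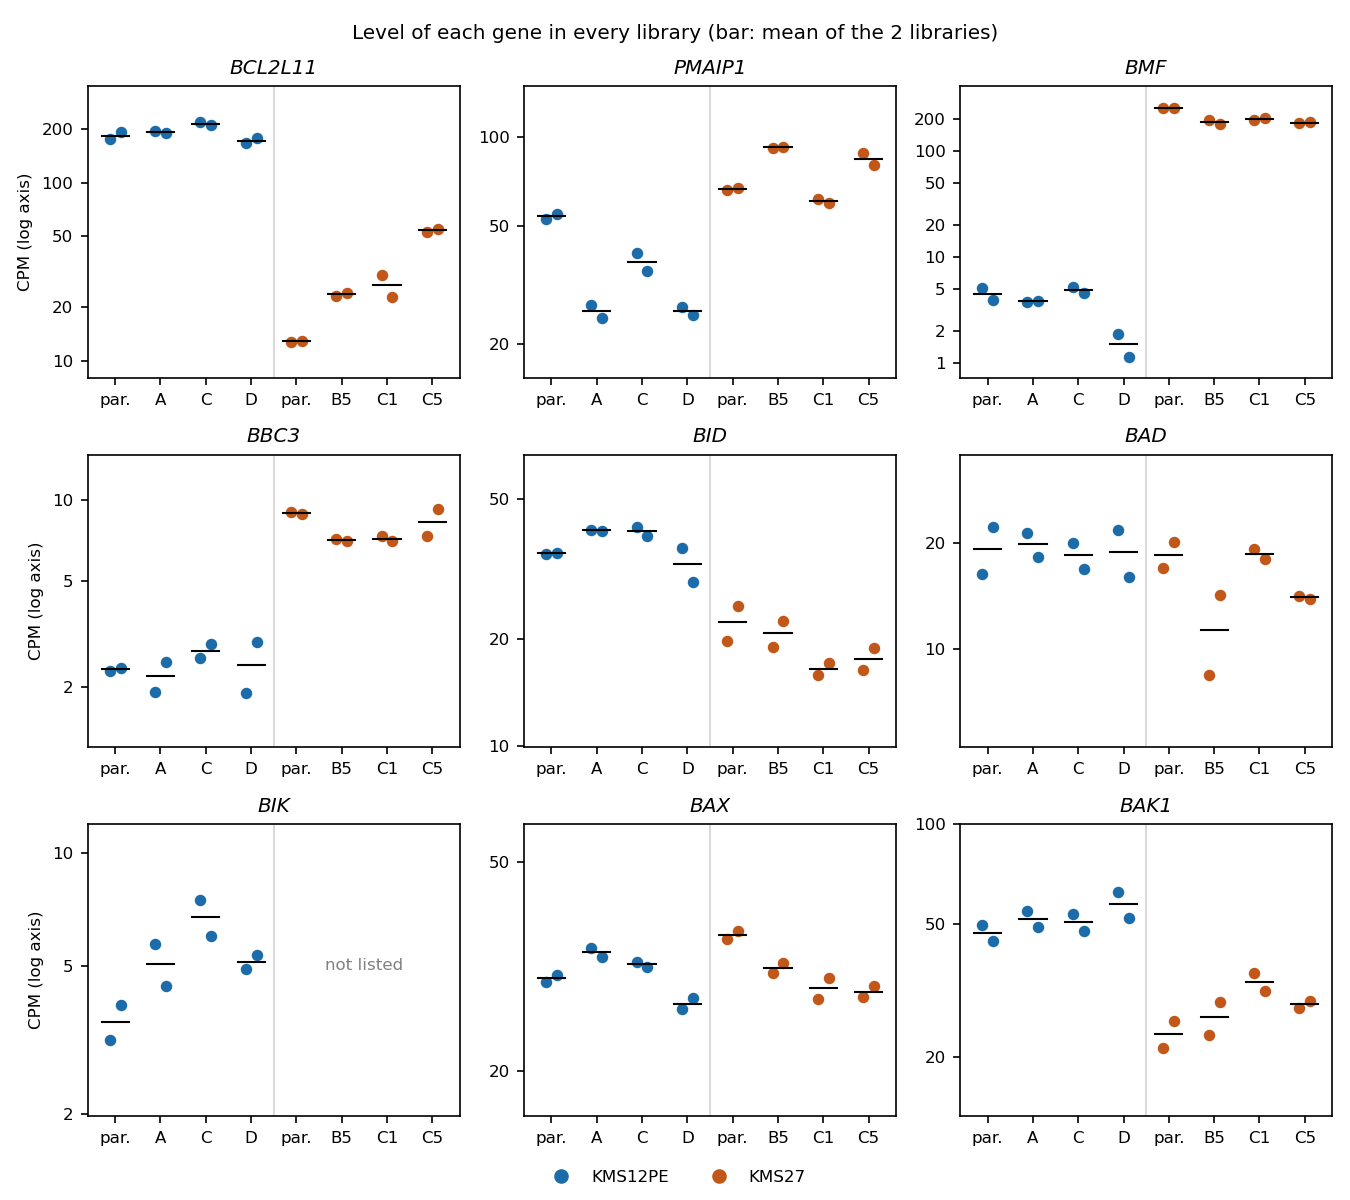
CPM of each of the 9 genes in every library, on log axes, with the 4 populations of KMS12PE on the left (blue) and those of KMS27 on the right (orange) in each panel, and a bar at the mean of the 2 libraries. BCL2L11 climbs from 12.8 CPM in parental KMS27 cells to 54 CPM in clone C5, PMAIP1 drops from 54 CPM in parental KMS12PE cells to 25.9 CPM in clones A and D, and BIK has no points in KMS27.

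The parental cells of the lines used these genes at different levels. Per kilobase of annotated exon, all transcripts merged, parental KMS12PE cells held BCL2L11 highest (27.7 CPM per kb), then PMAIP1 (24.2) and BAK1 (21.3), followed by BAX (11.6), BAD (11.3), BID (7.87), BIK (3.72), BMF (0.828) and BBC3 (0.73). BAX and BAD, and BMF and BBC3, lay within their spread of each other. Parental KMS27 cells held BMF highest (46.6 CPM per kb), then PMAIP1 (29.9), BAX (14), BAD (10.8), BAK1 (10.6), BID (5.03), BBC3 (2.82) and BCL2L11 (1.92), with BAD and BAK1 not separated by their spread. Per kilobase, BCL2L11 was thus the most abundant of these messengers in KMS12PE and the lowest of the 8 listed in KMS27, where BIK has no value. By CPM alone, BBC3 (8.96) was lower than BCL2L11 (12.8) in parental KMS27 cells. BMF was near the bottom in KMS12PE and at the top in KMS27. The lines were counted in separate tables, so line and table cannot be told apart and no test of these levels was made.

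BCL2L11 encodes BIM, the activator that t(11;14) myeloma cells hold bound to BCL2. The gene lies on chromosome 2 at 111119378 to 111168447 on the plus strand (GRCh38, GENCODE v29, as all gene positions here). In KMS27 it stood at 12.7 and 12.9 CPM in the parental libraries, 23.2 and 24 in clone B5, 30.3 and 22.9 in C1 and 53.1 and 54.9 in C5. Every clone library was above both parental libraries, and both clone C5 libraries were above all other libraries of the line.

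The rise of BCL2L11 was log2FC 0.88 in clone B5 (SE 0.146, adjusted p = 0.0036), 1.06 in clone C1 (SE 0.145, adjusted p = 0.00161) and 2.08 in clone C5 (SE 0.147, adjusted p = 3.93e-05). The mean over the clones rose 2.53-fold (log2FC 1.34, SE 0.127, adjusted p = 0.000137). The p-value of this mean does not count the spread among the clones. These 4 calls held in 13 of 13 alternative settings each, and the largest adjusted p of the mean over those settings was 0.0423. Among the 3 clones BCL2L11 varied most between the libraries of C1, where its log2FC was 0.84 without replicate 1 and 1.25 without replicate 2.

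The size of the rise differed among the clones, a test that called 13.7% of all genes (adjusted p = 0.00199 for BCL2L11). Clone C5 exceeded clone B5 by log2FC 1.19 (adjusted p = 0.00241, with 7.20% of all genes called) and clone C1 by log2FC 1.02 (adjusted p = 0.00659, with 4.63% of all genes called). The second of these was lost without clone C5 replicate 1 (0.0871) or 2 (0.0987). Clones C1 and B5 were not told apart (log2FC 0.18, SE 0.142, adjusted p = 0.447, with 11.3% of all genes called).

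Plasma cell markers moved in clone C5 as well. Of the 11, 6 fell there (CD38, JCHAIN, MZB1, PRDM1, SDC1 and XBP1), 54.5% beside 19.7% of all genes called. In clone B5 2 fell, and in clone C1 1 rose and 1 fell. That is 18.2% of the markers in each, below the 21.0% and 21.6% of all genes called. The summed level of the 11 markers ran from 11000 to 12700 CPM in the parental libraries, 8340 to 10400 in B5, 9610 to 11400 in C1 and 6490 to 6700 in C5. Its part in the BCL2L11 rise was not tested.

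In KMS12PE the same gene was already high. BCL2L11 was at 177 and 192 CPM in the parental libraries, 196 and 190 in clone A, 219 and 211 in clone C and 168 and 178 in clone D. Clone C lay above both parental libraries, clone D had 1 library below them and 1 between them, and no clone passed the test (log2FC 0.06, 0.22 and -0.09, SE 0.0843, 0.084 and 0.0849, adjusted p = 0.985, 0.368 and 0.659). With the block on replicate number the KMS12PE clones differed from each other in BCL2L11 (adjusted p = 0.00694). Even the highest KMS27 clone, at 54 ± 1.33 CPM, was below every KMS12PE population.

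The rise of BCL2L11 in KMS27 was read beside the transcripts that could share its reads. MIR4435-2HG, a non-coding gene on the opposite strand, covers 10.9% of the BCL2L11 exon bases, and whether strand was used in counting is not given in the sources used here. Its own level was 22.1 CPM in parental KMS27 cells, 21.8 in clone B5 (log2FC -0.02, adjusted p = 0.932), 33.3 in clone C1 (0.59, adjusted p = 0.00777) and 31.3 in clone C5 (0.50, adjusted p = 0.0153). BCL2L11 went from 12.8 to 23.6, 26.6 and 54 CPM in the same clones, and any part of shared reads in this was not tested.

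PMAIP1 encodes NOXA, the sensitiser that binds MCL1 and marks it for destruction, and lies on chromosome 18 at 59899948 to 59904306 on the plus strand. In KMS12PE it was at 53.1 and 55 CPM in the parental libraries, 27.2 and 24.5 in clone A, 40.6 and 35.4 in clone C and 26.7 and 25.1 in clone D. All 6 clone libraries were below both parental libraries, and clone C lay between the parental level and clones A and D.

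The fall of PMAIP1 reached log2FC -1.07 in clone A (SE 0.117, adjusted p = 0.00514) and -1.06 in clone D (SE 0.118, adjusted p = 0.00118), and the mean over the clones fell by 0.88 on the log2 scale (SE 0.0917, adjusted p = 0.00227). In clone C log2FC was -0.51 (SE 0.113) with adjusted p = 0.0701. It was 0.000768 in the fit that blocks on replicate number. The clone D call held in 13 of 13 settings. The clone A call was lost without parental replicate 1 (adjusted p = 0.0542), parental replicate 3 (0.0751) or clone A replicate 3 (0.0956), at a log2FC between -1.14 and -0.99. For the mean the call was lost without parental replicate 3 (log2FC -0.85). It was also lost when the 6 clone libraries were taken as 1 group (0.516), a setting in which 0 of all genes were called.

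The KMS12PE clones also differed from each other in PMAIP1 (adjusted p = 0.0199, where 8.22% of all genes were called). It was lost without clone A replicate 3 (0.0659) or clone C replicate 1 (0.164). This test called PMAIP1 and BMF of the 9 genes, and with the block on replicate number BCL2L11 and BID as well, where 26.1% of all genes were called. Clone D was below clone C by log2FC -0.56 (SE 0.116, adjusted p = 0.019, with 8.58% of all genes called), which was lost without clone C replicate 1 (0.137) or clone D replicate 3 (0.106) and with DESeq2 (0.0542). Clone C exceeded clone A by log2FC 0.56 without passing (SE 0.114, adjusted p = 0.0644, with 1.32% of all genes called), and clones D and A were not told apart (log2FC 0.00094, SE 0.119, adjusted p = 0.998).

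In KMS27 PMAIP1 went up in 2 clones. It was at 66.3 and 67.4 CPM in the parental libraries, 91.7 and 92.8 in clone B5, 61.7 and 59.7 in C1 and 88.2 and 80.6 in C5. Clones B5 and C5 lay above both parental libraries and clone C1 below both.

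PMAIP1 rose 1.38-fold in clone B5 (log2FC 0.47, SE 0.0979, adjusted p = 0.0105) and 1.26-fold in clone C5 (log2FC 0.34, SE 0.0976, adjusted p = 0.0407), while clone C1 gave log2FC -0.14 (SE 0.0976, adjusted p = 0.332). The clones differed (adjusted p = 0.0106): clone C1 was below clone B5 by log2FC -0.61 (adjusted p = 0.00718) and clone C5 above clone C1 by 0.48 (adjusted p = 0.0301). The test among the clones and that of C1 against B5 were lost without clone C1 replicate 1 (0.0785 and 0.0678) or 2 (0.0832 and 0.0526). The contrast of C5 and C1, in the fits without 1 library, held only without either clone B5 library, with log2FC from 0.40 to 0.52. It also held with DESeq2 (0.00435), upper-quartile scaling (0.0245), no filter on low counts (0.0325) and the block on replicate number (0.0188). The clone B5 call was lost without parental replicate 1 (0.0839) or 2 (0.0743) and when clone B5 and parental libraries were fitted alone (0.0613). Among the fits without 1 library, the clone C5 call held only without clone B5 replicate 1 (0.0141) or 2 (0.0156), and without any of the other 6 libraries its adjusted p was between 0.0708 and 0.228.

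The response of the 2 lines was compared directly in 1 fit of all 16 libraries over the 11623 genes listed in both tables, which called 14.2% of the genes. BCL2L11 responded less in KMS12PE than in KMS27 by log2FC -1.27 (SE 0.132, adjusted p = 3.02e-05). For PMAIP1 the mean response was a fall in KMS12PE (log2FC -0.88) and 0.22 in KMS27, which was not called. The difference was -1.09 (SE 0.12, adjusted p = 4.55e-05). Both differences held in 20 of 20 settings. The other 6 genes listed in both lines were not called, with differences of 0.41 for BID (SE 0.172, adjusted p = 0.14), 0.34 for BAX (SE 0.115, adjusted p = 0.0664), 0.35 for BBC3 (SE 0.287), 0.35 for BAD (SE 0.27), -0.16 for BMF (SE 0.201) and -0.14 for BAK1 (SE 0.173). With the block on replicate number BID (adjusted p = 0.0388) and BAX (adjusted p = 0.0423) were called too. The 2 called differences were thus in an activator that rose in KMS27 and in an MCL1-binding sensitiser that fell in KMS12PE.

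**Figure D2:**
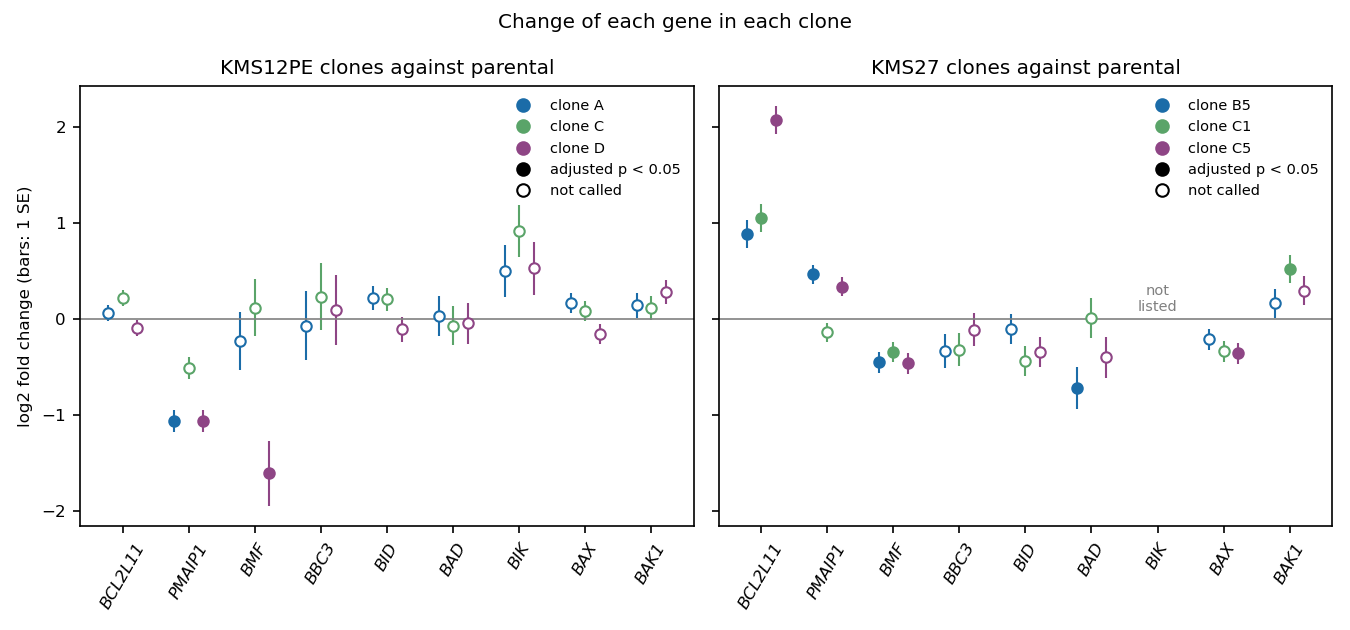
Log2 fold change of each gene in each clone against the parental cells of its line, with bars of 1 SE, filled where the adjusted p was under 0.05. BCL2L11 is filled and above 0 in all 3 KMS27 clones (0.88, 1.06 and 2.08), PMAIP1 is filled and below 0 in KMS12PE clones A and D, and BAX and BAK1 stay between -0.36 and 0.52 in every clone.

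BMF, a BH3-only protein that is tethered to the cytoskeleton and released under stress, lies on chromosome 15 at 40087890 to 40108892 on the minus strand. In KMS27 it was the most abundant of these genes, at 254 and 254 CPM in the parental libraries, 194 and 178 in clone B5, 196 and 205 in C1 and 183 and 186 in C5. All 6 clone libraries were below both parental ones, with both libraries of C1 above those of B5 and C5, which overlapped.

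BMF fell in every KMS27 clone, by 26.9% in clone B5 (log2FC -0.45, SE 0.106, adjusted p = 0.0171), to 0.787 times parental in clone C1 (log2FC -0.34, SE 0.106, adjusted p = 0.0469) and to 0.726 times in clone C5 (log2FC -0.46, SE 0.106, adjusted p = 0.0158). The mean over the clones was 0.748 times parental (log2FC -0.42, SE 0.0845, adjusted p = 0.00706), and no difference among the clones was called (adjusted p = 0.623). The direction held in every setting, but each call needed both parental libraries. Without parental replicate 1 the adjusted p was 0.122 for clone B5, 0.241 for C1, 0.11 for C5 and 0.0976 for the mean, and without parental replicate 2 it was 0.104, 0.187, 0.105 and 0.0815. The clone C5 call was also lost without clone C5 replicate 1 (0.119) or 2 (0.0973). The clone C1 call was lost without either library of clone C1 (0.234 and 0.137) or of clone C5 (0.0966 and 0.0971) and with no filter on low counts (0.0509), and the clone B5 call when fitted with parental libraries alone (0.0931).

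In KMS12PE BMF was scarce, so its values rest on few counts. The parental libraries had 29 and 25 counts (5.09 and 3.93 CPM), clone A 34 and 50 (3.82 and 3.87 CPM), clone C 59 and 65 (5.2 and 4.59 CPM) and clone D 12 and 13 (1.89 and 1.16 CPM). Clone D was below every other library of the line. Its log2FC was -1.61 against parental (SE 0.341, adjusted p = 0.0291), -1.38 against clone A (adjusted p = 0.04, with 6.77% of all genes called) and -1.73 against clone C (adjusted p = 0.0114), and the test among the clones gave adjusted p = 0.0261. The contrast with clone A held only without clone D replicate 1 among the fits without 1 library (0.059 to 0.255 without any other 1), and was 0.189 with DESeq2. That with clone C was lost without clone C replicate 1 (0.0758) or clone D replicate 3 (0.0926). The test among the clones was lost when any 1 library of clones A and C, or clone D replicate 3, was left out (0.0647 to 0.189) and with DESeq2 (0.0792). Of the fits without 1 library, the call against parental held only without clone D replicate 1 (0.0334). Without any other single library the adjusted p lay between 0.056 and 0.179, with DESeq2 it was 0.106, and with clone D and parental libraries alone 0.131. Clones A and C gave log2FC -0.23 (SE 0.301, adjusted p = 0.985) and 0.12 (SE 0.294, adjusted p = 0.975).

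BBC3 encodes PUMA, the p53-induced activator, and lies on chromosome 19 at 47220822 to 47232766 on the minus strand. It was low in both lines. In KMS12PE it had 12 to 41 counts a library and ran from 1.89 to 2.94 CPM. Clones A and D overlapped the parental libraries, and both clone C libraries were above them without passing. In KMS27 it was at 9.03 and 8.89 CPM in the parental libraries, 7.16 and 7.07 in clone B5, 7.33 and 7.03 in C1 and 7.35 and 9.26 in C5. In 5 of 6 clone libraries it was below both parental libraries, and no clone passed (log2FC -0.33, -0.32 and -0.11, SE 0.176, 0.173 and 0.173, adjusted p = 0.221, 0.217 and 0.701). The mean over the clones was at log2FC -0.25 (SE 0.14, adjusted p = 0.218).

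BID, which caspase-8 cleaves to link death receptors to mitochondria, lies on chromosome 22 at 17734138 to 17774770 on the minus strand. KMS27 held it at 19.8 and 24.9 CPM in the parental libraries, 19.1 and 22.6 in clone B5, 15.9 and 17.1 in C1 and 16.4 and 19 in C5. Clones C1 and C5 were below both parental libraries, and clone B5 overlapped them. The log2FC was -0.44 in clone C1 (SE 0.157, adjusted p = 0.0756), which passed when that clone was fitted with its parental libraries alone (0.0384) or without clone B5 replicate 1 (0.0291) or 2 (0.027). It was -0.10 in clone B5 (adjusted p = 0.692) and -0.34 in clone C5 (adjusted p = 0.17), and the mean over the clones, at -0.29 (adjusted p = 0.12), passed without clone B5 replicate 2 (0.0436). In KMS12PE BID was at 35 CPM in both parental libraries, 40.5 to 40.9 in clone A, 39.3 to 41.5 in clone C and 29.1 to 36.3 in clone D, with no call against parental cells (log2FC 0.22, 0.21 and -0.11, adjusted p = 0.823, 0.674 and 0.747). Among the KMS12PE clones BID differed in the fit with the block on replicate number (adjusted p = 0.0197). The same block called BID in KMS27 clone C1 against parental cells (adjusted p = 0.0275).

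BAD is the sensitiser of BCL2 and BCL-XL that survival kinases silence by phosphorylation, and lies on chromosome 11 at 64269830 to 64284704 on the minus strand. In KMS27 it was at 16.9 and 20.1 CPM in the parental libraries, 8.45 and 14.2 in clone B5, 19.2 and 18.1 in C1 and 14.2 and 13.9 in C5. Clones B5 and C5 were below both parental libraries and clone C1 was at their level. The change in clone B5 was log2FC -0.72 (SE 0.22, adjusted p = 0.0471), and its size rested on 1 library, being -0.36 (adjusted p = 0.114) without replicate 1 and -1.13 (adjusted p = 0.000632) without replicate 2. Without any of the other 6 libraries the call was lost as well (adjusted p from 0.0853 to 0.209), as it was when clone B5 and parental libraries were fitted alone (0.175). Clone C5 gave -0.40 (SE 0.215, adjusted p = 0.234), and passed with its parental libraries alone (0.04) or without clone B5 replicate 1 (0.0352) or 2 (0.0396). Clone C1 gave 0.01 (SE 0.212). The mean over the clones, -0.37 (adjusted p = 0.151), was -0.50 without clone B5 replicate 2 (adjusted p = 0.00404).

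GPR137, on the opposite strand, covers 23.7% of the BAD exon bases, and its log2FC in clone B5 was -0.09 (adjusted p = 0.758). In KMS12PE BAD ran from 16 to 22.2 CPM with all populations overlapping, and its log2FC lay between -0.07 and 0.03 in the 3 clones (SE 0.208 to 0.213).

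BIK, a sensitiser at the endoplasmic reticulum, lies on chromosome 22 at 43110748 to 43129712 on the plus strand and could be read in KMS12PE alone. It had 18 and 25 counts in the parental libraries (3.16 and 3.93 CPM), 51 and 57 in clone A (5.73 and 4.41 CPM), 85 and 85 in clone C (7.49 and 6 CPM) and 31 and 60 in clone D (4.89 and 5.34 CPM). All 6 clone libraries were above both parental libraries, with no overlap. No clone passed (log2FC 0.50, 0.92 and 0.53, SE 0.275, 0.269 and 0.279, adjusted p = 0.806, 0.189 and 0.381), although clone C did in the fit that blocks on replicate number (0.0392).

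BAX, the effector that moves from the cytosol into the mitochondrial membrane, lies on chromosome 19 at 48954815 to 48961798 on the plus strand. Its KMS27 values were 35.7 and 36.9 CPM in the parental libraries, 30.6 and 32.1 in clone B5, 27.4 and 30.1 in C1 and 27.6 and 28.9 in C5. All 6 clone libraries were below both parental libraries, and both of B5 were above those of C1 and C5, which overlapped. BAX was lower in clone C5 (log2FC -0.36, SE 0.108, adjusted p = 0.0458) and in the mean over the clones (log2FC -0.30, SE 0.0864, adjusted p = 0.0319), and clones B5 and C1 gave -0.21 (adjusted p = 0.209) and -0.34 (adjusted p = 0.0529).

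The BAX calls depended on single libraries. The clone C5 call held only without clone B5 replicate 1 (0.0208) or 2 (0.0224) among the fits without 1 library, and was between 0.0666 and 0.238 without any other one and 0.0606 with DESeq2. The mean was not called without parental replicate 1 (0.189), parental replicate 2 (0.211), clone C1 replicate 1 (0.075), clone C5 replicate 1 (0.0907) or clone C5 replicate 2 (0.0713), or with the clone libraries as 1 group (0.103). Clone C1 passed for BAX with its parental libraries alone (0.0383), with upper-quartile scaling (0.0356) and without clone B5 replicate 1 (0.0287) or 2 (0.0263). With the block on replicate number BAX was also called in KMS27 clone C1 (adjusted p = 0.0414). In KMS12PE BAX ran from 26.2 to 34.3 CPM, clones A and C above and clone D below both parental libraries, with no call (log2FC 0.16, 0.09 and -0.16, adjusted p = 0.878, 0.906 and 0.515).

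BAK1, the effector that sits in the membrane held by MCL1 and BCL-XL, lies on chromosome 6 at 33572547 to 33580293 on the minus strand. In KMS27 it was at 21.2 and 25.7 CPM in the parental libraries, 23.3 and 29.3 in clone B5, 35.6 and 31.5 in C1 and 28.1 and 29.4 in C5. Clones C1 and C5 were above both parental libraries, and clone B5 overlapped them. BAK1 rose 1.43-fold in clone C1 (log2FC 0.52, SE 0.149, adjusted p = 0.0366), a call that among the fits without 1 library held only without clone B5 replicate 1 (0.00364) or 2 (0.00484) and was between 0.0573 and 0.233 without any other one. Clones B5 and C5 gave log2FC 0.17 (adjusted p = 0.482) and 0.30 (adjusted p = 0.207), and the mean over the clones, 0.33 (adjusted p = 0.0855), passed without clone B5 replicate 1 (0.00933).

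In KMS12PE BAK1 ran from 44.5 to 62.6 CPM. Clone D lay above both parental libraries at log2FC 0.28 (SE 0.129, adjusted p = 0.303, and 0.0373 with the block on replicate number), and clones A and C gave 0.14 and 0.11 (adjusted p = 0.962 and 0.897). Processed pseudogenes BAK1P1 and BAK1P2 could share reads with BAK1 where mapping is ambiguous.

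Genes that lie beside each of these on the chromosome were set against them in each clone, as the median over the 10 tested genes on either side (fewer near a chromosome end). Around BCL2L11 the 20 neighbours had a median log2FC of 0.10, 0.11 and 0.21 in clones B5, C1 and C5, where BCL2L11 itself was at 0.88, 1.06 and 2.08. Around PMAIP1 the median was -0.08 in KMS12PE clone A and 0.03 in clone D, beside -1.07 and -1.06 for the gene. BMF stood apart from its neighbours in the same way, at -1.61 in KMS12PE clone D beside a median of -0.04, and at -0.45, -0.34 and -0.46 in the KMS27 clones beside medians of 0.18, 0.16 and 0.15.

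The neighbourhood of BAD behaved otherwise. Its 20 tested neighbours, within 0.682 Mb, had a median log2FC of -1.03 in clone B5 with 0 above 0 and 16 called, -0.46 in clone C1 with 8 called and -0.67 in clone C5 with 10 called. BAD itself, at -0.72, 0.01 and -0.40, changed less than this median in every KMS27 clone. Around BAX the median was -0.45, 0.07 and -0.52 in clones B5, C1 and C5, beside -0.21, -0.34 and -0.36 for the gene, and around BAK1 it was 0.17, 0.34 and 0.23, beside 0.17, 0.52 and 0.30. In KMS12PE the medians of these 3 neighbourhoods lay between -0.10 and 0.05 in every clone.

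**Figure D3:**
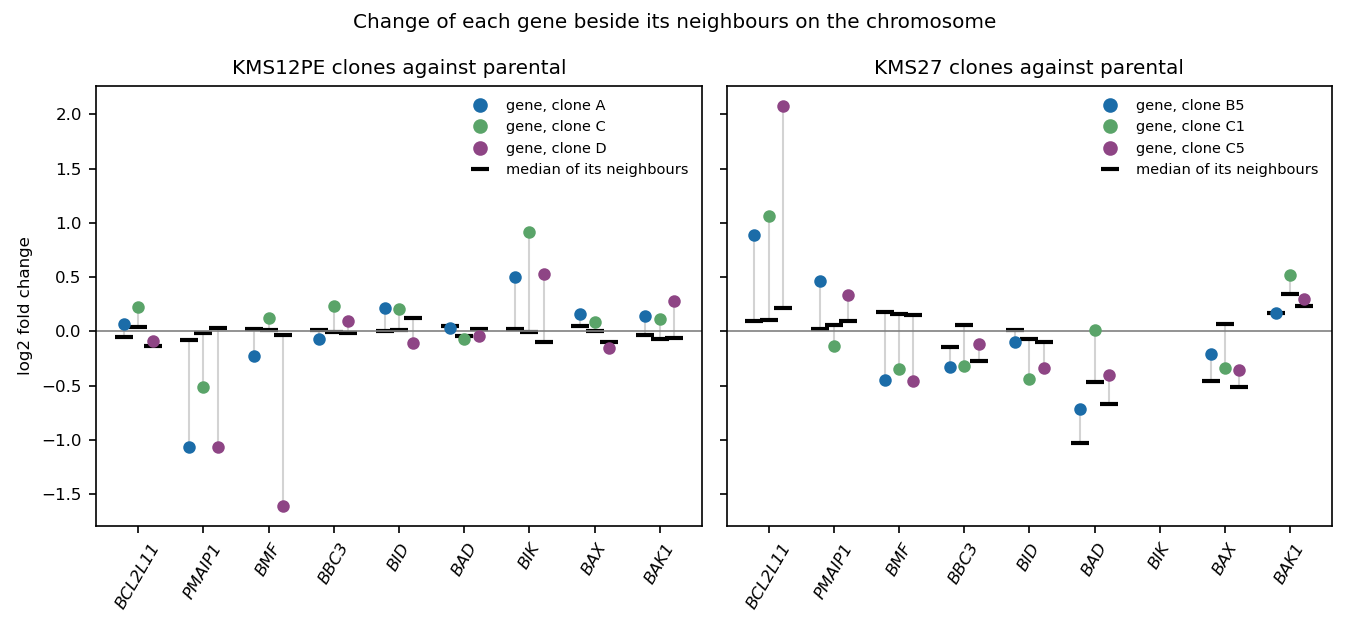
Log2 fold change of each gene in each clone (points) beside the median over its tested neighbours on the chromosome, 10 on either side (black dashes). BCL2L11 and BMF in KMS27, PMAIP1 and BIK in KMS12PE, and BMF in KMS12PE clone D lie away from the median of their neighbours. The median of the neighbours of BAD lies below it in all 3 KMS27 clones, down to -1.03 in clone B5.

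The survival proteins that these death proteins bind were measured in the same libraries. Of the 6 anti-apoptotic genes examined, BCL2A1 and BCL2L10 are listed for neither line. Of the 4 tested, 1 was called in KMS12PE clone C, beside 1.78% of all genes, and 2 in KMS27 clone C1, beside 21.6%. All of these were higher, and no other clone had a call. Alternative settings were not examined for these genes, nor for the regulators named below. BCL2, the target of venetoclax, rose from 701 ± 31.7 to 978 ± 50.3 CPM in KMS12PE clone C (log2FC 0.48, adjusted p = 0.0363) and from 198 ± 1 to 274 ± 4.1 CPM in KMS27 clone C1 (log2FC 0.46, adjusted p = 0.0167). BCL2L1, which encodes BCL-XL, rose from 17.6 ± 1.15 to 27.1 ± 1.65 CPM in clone C1 (log2FC 0.62, adjusted p = 0.0366). It went from 14.2 ± 0.299 to 21.7 ± 0.804 CPM in KMS12PE clone D without passing (log2FC 0.61, adjusted p = 0.0573). MCL1, the partner of NOXA, was not called in any clone, with log2FC from 0.15 to 0.22 in KMS12PE (adjusted p from 0.226 to 0.838) and from -0.03 to 0.26 in KMS27 (adjusted p from 0.14 to 0.87).

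Differences in log2 CPM between a death gene and a survival gene in the same library show the 2 sides together, as a description. PMAIP1 minus MCL1 was nearly equal in the parental cells of the lines, at -2.87 in KMS12PE and -2.93 in KMS27. It moved to -4.08, -3.55 and -4.15 in clones A, C and D, and to -2.64, -3.33 and -2.56 in clones B5, C1 and C5. BCL2L11 minus BCL2 was -1.92 in parental KMS12PE cells and -3.95 in parental KMS27 cells. In the KMS27 clones it was -3.05, -3.38 and -2.15, so clone C5 alone came to the range of the KMS12PE populations (-2.23 to -1.68). In KMS12PE it was higher than parental in clone A and lower in clones C and D.

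**Figure D4:**
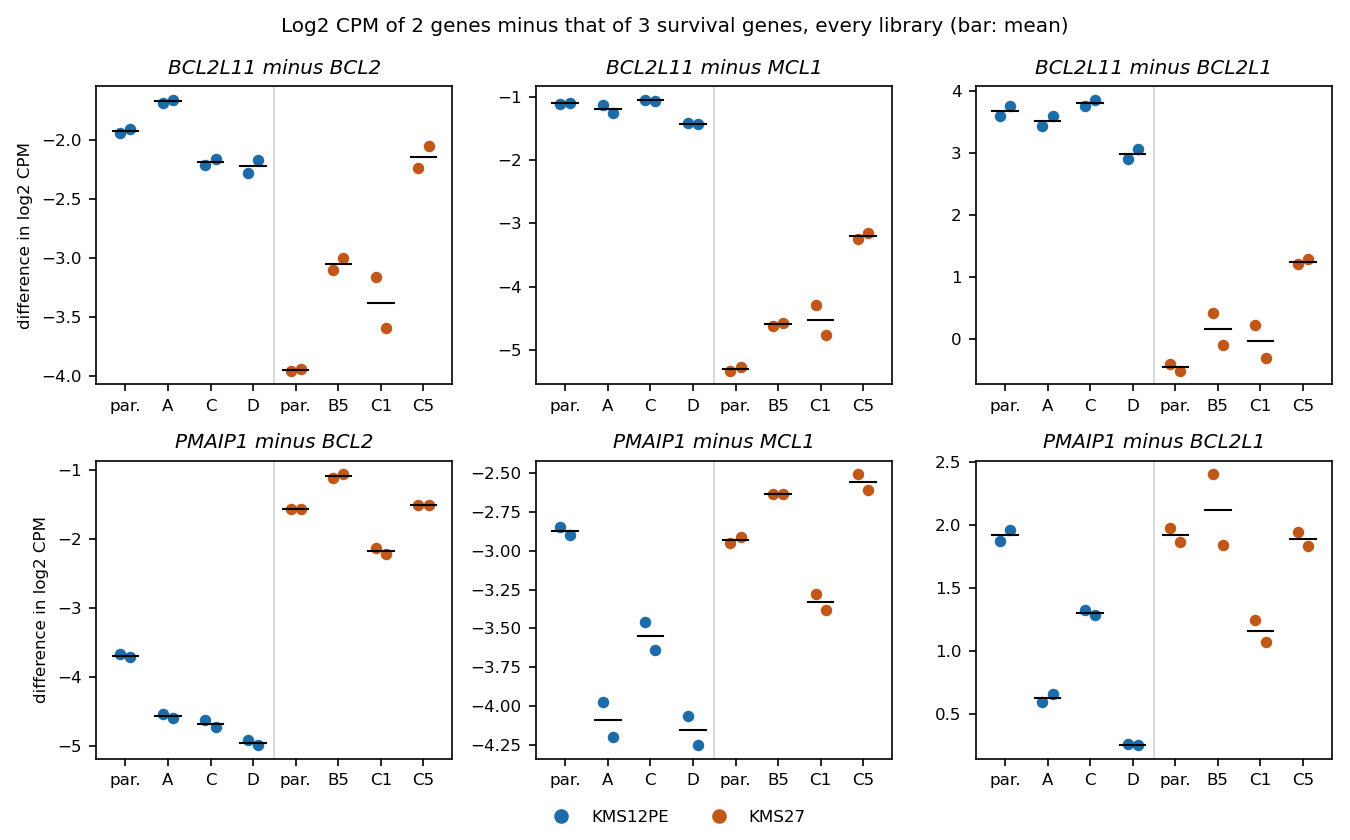
Log2 CPM of BCL2L11 (top) and PMAIP1 (bottom) minus that of BCL2, MCL1 and BCL2L1 in the same library, for every library and with a bar at the population mean. PMAIP1 minus MCL1 starts near -2.9 in both parental populations and lies below it in all KMS12PE clones and in clone C1, while BCL2L11 minus each partner is higher than parental in all 3 KMS27 clones.

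Other family members and regulators of this group were read against the shares of all genes given above. Of the other BH3 or pro-death family genes, 0 of 5 tested were called in KMS12PE. In KMS27 BNIP3L, a mitophagy receptor, rose from 61.2 ± 0.0194 to 105 ± 4.93 CPM in clone C1 (log2FC 0.78, adjusted p = 0.00125), and BCL2L13 rose there too (log2FC 0.58, adjusted p = 0.0121). These were 2 of 5 tested, beside 21.6% of all genes, and in KMS27 clones B5 and C5 0 of 5 were called.

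Transcription factors known to act on BH3-only genes gave 0, 1 and 4 calls of 13 in KMS12PE clones A, C and D, and 9, 7 and 6 of 17 in KMS27 clones B5, C1 and C5. That is 7.69% in clone C and 30.8% in clone D, beside 1.78% and 5.16% of all genes. In the KMS27 clones these factors gave 52.9%, 41.2% and 35.3%, beside 21.0%, 21.6% and 19.7%. Their median log2FC was -0.26 in clone D and 0.04, 0.18 and 0.12 in B5, C1 and C5. SMAD3, which carries TGF-beta signals to the nucleus, fell in KMS12PE clone D from 130 ± 6.49 to 61.9 ± 9.21 CPM (log2FC -1.07, adjusted p = 0.000926), and rose in KMS27 from 2.74 ± 0.752 to 14.9 ± 1.45, 11.7 ± 0.247 and 10.5 ± 0.843 CPM in clones B5, C1 and C5 (adjusted p = 0.000123, 0.000332 and 0.000381). RUNX1 rose in KMS12PE clone D from 29.6 ± 0.363 to 80 ± 1.89 CPM (adjusted p = 7.92e-05) and in clone C to 45.2 ± 1.37 CPM (adjusted p = 0.0195). The glucocorticoid receptor NR3C1 was lower and FOXO1 higher in clone D (log2FC -0.52 and 0.73, adjusted p = 0.0153 and 0.0272). MYC, which drives death genes as well as growth, fell in clones B5 and C5 (log2FC -1.12 and -0.67, adjusted p = 0.000247 and 0.00317). EGR1 rose in clone B5 (log2FC 1.05, adjusted p = 0.02) and fell in clones C1 and C5 (-1.87 and -2.03, adjusted p = 0.00236 and 0.0015). FOXO4 rose in clone C1 (log2FC 0.86, adjusted p = 0.00391).

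Among the binding partners, modifiers and activators of the death proteins, 0, 1 and 2 of 31 were called in KMS12PE clones A, C and D, and 5, 6 and 6 of 32 in KMS27 clones B5, C1 and C5. The KMS12PE counts are 3.23% in clone C and 6.45% in clone D, near the 1.78% and 5.16% of all genes called there. The KMS27 counts are 15.6%, 18.8% and 18.8%, below the share of all genes called in each of those clones, so the genes named here are examples and not a result about the list. In KMS12PE these were the BAD kinases PIM1 and PIM2, with PIM2 higher in clone C (log2FC 0.61, adjusted p = 0.0425) and lower in clone D (-0.64, adjusted p = 0.0193), and PIM1 lower in clone D (-0.62, adjusted p = 0.00455). DUSP6, the phosphatase that switches off ERK, the kinase that marks BIM for destruction, rose in all 3 KMS27 clones (from 2.33 ± 0.678 to 10.9 ± 0.959, 8.1 ± 0.388 and 6.09 ± 0.0282 CPM, adjusted p = 0.000299, 0.00107 and 0.00342). USP9X, which stabilises MCL1, rose in clones C1 and C5 (log2FC 0.68 and 0.51, adjusted p = 0.00461 and 0.0153), and AURKA in clones B5 and C5 (0.55 and 0.46, adjusted p = 0.00776 and 0.0168). MAPK9, a JNK kinase, rose in clone C1 (log2FC 0.74, adjusted p = 0.00902).

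Targets of p53, which include PMAIP1, BBC3 and BAX, were scored without those 3 genes. In KMS12PE 1 of 19 was called, the death receptor FAS, lower in clone A (14.2 ± 0.643 to 5.64 ± 0.345 CPM, adjusted p = 0.0179). That single gene is 5.26% of the list, beside 0.448% of all genes in clone A. In KMS27 9, 7 and 5 of 20 were called in clones B5, C1 and C5, of which 7, 6 and 5 were higher, 45%, 35% and 25% of the list beside the 21.0%, 21.6% and 19.7% of all genes. RRM2B rose in all 3 clones (log2FC 1.05, 0.83 and 0.77, adjusted p = 0.00219, 0.00672 and 0.00967), as did CDKN1A (0.80, 0.75 and 0.56, adjusted p = 0.00399, 0.00556 and 0.0186). FAS rose in clones B5 and C5 (log2FC 0.65 and 0.90, adjusted p = 0.00877 and 0.00198), and MDM2 in clone B5 (0.77, adjusted p = 0.00376). PMAIP1 was called in the same 2 clones as FAS, whereas BBC3 and BAX gave negative log2FC in both. The median over the p53 targets was 0.11, 0.24 and 0.10 in clones B5, C1 and C5.

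Genes whose pattern over the 8 libraries of a line was most like that of a called gene were found by Pearson's r of log2 CPM, which largely follows the 4 populations and is given as a description. For BCL2L11 in KMS27 these were PRR5 (0.988), UBAP2L (0.985) and POGK (0.985). For PMAIP1 they were TPP1 (0.971), HOMER3 (0.969) and SNHG6 (0.951) in KMS12PE, and MELK (0.98), TNFAIP8 (0.976) and BUB1 (0.969) in KMS27. For BMF they were FAR2 (0.992), TBC1D15 (0.989) and TCEAL8 (0.988) in KMS12PE, and SYVN1 (0.995), PLEKHA7 (0.993) and CLCN3 (0.991) in KMS27. For BAX in KMS27 they were ALG2 (0.985), FICD (0.984) and TXNDC15 (0.978), for BAK1 CPTP (0.987), PRUNE1 (0.986) and NTHL1 (0.981), and for BAD C11orf68 (0.982), HACL1 (0.98) and NDUFAF3 (0.977).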

How the data were processed

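Poly-A RNA of 16 libraries was sequenced, and the authors deposited 1 table of read counts per gene symbol for each line, with no normalization found in the values. The genome build was hg38 per the submitters' processing notes. The aligner, counter, annotation and strand setting were not given in the sources used here. Read from the values, no listed gene falls under 5 counts in more than 4 of a line's 8 libraries, so a gene that is not listed may be low rather than absent. Each line was fitted with edgeR 4.0.16 in R 4.3.3 (filterByExpr, TMM, estimateDisp, glmQLFit, glmQLFTest, 2-sided), which tested 12279 and 14088 genes and all listed death genes. The coefficient of biological variation came to 11.9% (KMS12PE) and 14.3% (KMS27). The procedure was run on simulated counts with the same dispersion for every gene, a single changed clone and no pairing of libraries. That run cannot show how the procedure behaves under the pairing seen in KMS12PE. A joint fit of both lines tested the difference in response. Gene positions and exon lengths came from GENCODE v29, which matched 11207 and 12205 of the tested symbols, and upstream sequences came from RefSeq (GRCh38.p14).

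The death genes and gene lists were chosen with earlier results of these data known. The text names all 9 death genes, BCL2, BCL2L1 and MCL1, up to 4 called genes per list and line by smallest adjusted p, and the 3 genes most alike in pattern among genes averaging 3 log2 CPM or more (prior count 2). Alternatives were DESeq2 1.42.0, upper-quartile scaling, no filter, clone and parental libraries alone, the 6 clone libraries as 1 group, replicate number as a block, and each library left out. In KMS12PE libraries with the same number deviated together in every pair of populations (correlations of replicate differences 0.254 to 0.537), a pairing read from the data that the labels do not explain. Whole-genome data of the series were not used here.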

Additional observations from a re-analysis of the deposited data

Results flagged for a closer look

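The response of KMS12PE minus that of KMS27 was -1.27 for BCL2L11 and -1.09 for PMAIP1 on the log2 scale, and both differences were called. They are listed because the same contrast, clones against parental cells, gave different changes in the 2 lines.

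The 3 clones of a line differed from each other in 4 tests. In KMS12PE the adjusted p (edgeR's quasi-likelihood test among the clones) was 0.0199 for PMAIP1, least reduced in clone C, and 0.0261 for BMF, which was reduced in clone D alone. In KMS27 it was 0.00199 for BCL2L11, highest in clone C5, and 0.0106 for PMAIP1, which was not raised in clone C1.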

How the results depend on the processing

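No call reversed its direction. Of 274 settings of results called, 208 kept the call, and of 770 settings of results not called, 21 gave one. The BCL2L11 calls in KMS27, the PMAIP1 call in KMS12PE clone D and both differences between the lines held in every setting run. For the differences between the lines, no setting run counted the spread among the clones. The number of death genes called fell to 1 with DESeq2 for KMS12PE clone D and for the test among the KMS12PE clones. With only a clone and its parental libraries it was 1 for clone D, 1 for B5 and 5 for C1. With the clone libraries as 1 group it was 0 for the KMS12PE mean, where 0 of all genes were called. With replicate number as a block it was 2 for KMS12PE clone C (869 of 12279 genes called) and 4 among the KMS12PE clones (3208 of 12279). It was 5 for KMS27 clone C1 (3920 of 14088 genes called), where BID (adjusted p = 0.0275) and BAX (0.0414) joined. For the difference between the lines it was 4 (2535 of 11623 genes called), where BID and BAX joined. The other counts in this paragraph stand without such a share and describe the settings alone. In KMS27 the replicate differences correlated at 0.444 between parental and B5 libraries and at 0.0597 to 0.139 in the other 5 pairs, so not every pair passed 0.1 and the block there shares only a number. For B5 it called the same 4 genes. It changed no other count by over 1.5 times. Leaving out each library in turn gave 0 to 1 genes for clone A and for the KMS12PE mean, 1 to 2 for clone D, 0 to 2 among the KMS12PE clones, 1 to 4 for B5, 1 to 5 for C1, for C5 and for the KMS27 mean, and 1 to 4 among the KMS27 clones. A population left with 1 library was assumed to vary like the others. KMS12PE has the lower depth, where 3 counts corresponded to 0.212 to 0.527 CPM against 0.0596 to 0.16 in KMS27, and BBC3, BMF and BIK there rest on 12 to 85 counts a library.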
